A study of Drosophila melanogaster with 18 samples.

Results

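Cp190 RNAi Chro RNAi cells were compared directly with BEAF-32 RNAi cells by RNA-seq, a comparison between a pair of insulator protein knockdowns rather than between a knockdown and WT. Its members are the 3 Cp190 RNAi Chro RNAi and the 3 BEAF-32 RNAi libraries, 6 of the 12 RNA-seq libraries and of the 18 samples of the series, taken by their labels. All libraries came from BG3 cells, a Drosophila melanogaster line from the larval central nervous system. BEAF-32 RNAi cells received double-stranded RNA against BEAF-32, and Cp190 RNAi Chro RNAi cells received double-stranded RNA against both Cp190 and Chro, 50 µg in each case, and cells were harvested 72 h later. For WT, 3 libraries of BG3 cells, the labels state no double-stranded RNA, and whether WT cells had a control treatment is not given in the labels. The 3 BEAF-32 RNAi Dref RNAi libraries entered the model only for the estimate of spread. Nothing in the labels says that replicates were separate cultures, so the tests gauge variation among libraries that may be technical only.

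BEAF-32 is a zinc finger protein that binds DNA, mostly near the start sites of active genes, at clusters of the CGATA motif. Cp190 does not read a long motif of its own. It is recruited by insulator proteins that bind DNA, BEAF-32 among them, and Chro (Chromator) is a chromodomain protein found with BEAF-32 and Cp190 at borders of topologically associating domains (TADs), the segments of a chromosome within which contacts are enriched. The comparison therefore sets RNAi against a DNA-binding member of this group beside RNAi against its cofactors.

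The gene-specific parts of the primers that made the double-stranded RNAs are shown for both targets of the double knockdown, because they fix which transcript segment was targeted. They are written in lower case throughout, 5′ to 3′, without the phage promoter tail, and were placed on the dm6 genome.
Cp190 forward: cggcatggacatcatcataa
Cp190 reverse: acagttggacagcccagttc
Chro forward: ctttgttattcgcacaggca
Chro reverse: caggaggaattggcaaacat
Each primer of 20 bases matched 1 place in the genome. The Cp190 pair spans 406 bases of chromosome arm 3R (15273621 to 15274026) and the Chro pair 348 bases of 3L (22877523 to 22877870), and every base of both segments is coding exon. No stretch of 19 bases of either segment occurs elsewhere in the genome on either strand. The BEAF-32 segment of 569 bases is also exonic, and 2 of its stretches of 19 bases occur elsewhere.

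The 6 libraries held 7178403 to 12082059 counts over genes. The lowest total belongs to the library labelled BEAF-32 RNAi replicate 3, which stood apart from its group. Between replicates 1 and 2 of BEAF-32 RNAi the median absolute log2 difference over 8377 genes was 0.10, and among the 3 Cp190 RNAi Chro RNAi libraries it was 0.10 to 0.14. Those 3 libraries differed from the BEAF-32 RNAi Dref RNAi libraries by 0.14 to 0.18, so the levels of these groups were close. Replicate 3 differed from the other BEAF-32 RNAi libraries by 0.44 in both pairings, more than those 2 libraries differed from any Cp190 RNAi Chro RNAi library (0.24 to 0.26). Reads without a unique alignment made up 29.5% of that library against 21.0 to 22.5% of the other 5. Its median absolute difference was 0.35 to 0.37 from the Cp190 RNAi Chro RNAi libraries and 0.30 to 0.31 from the BEAF-32 RNAi Dref RNAi libraries. It was thus nearest to a group whose label it does not carry. Its label was taken as given, and whether it is another sample or batch was not tested. Each value that uses all 3 BEAF-32 RNAi libraries holds only if the label does. Fold changes are therefore given with all 3 libraries and with replicates 1 and 2 only. CPM values (counts per 1000000 counts of a library, scaled by TMM over the 12 libraries) are listed in the order of replicates 1, 2 and 3, and a log2 fold change is always Cp190 RNAi Chro RNAi over BEAF-32 RNAi, ± its approximate SE.

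The targeted transcripts separated the groups poorly. BEAF-32 stood at 41.0, 44.6 and 74.8 CPM in BEAF-32 RNAi, 69.1, 69.7 and 80.8 in the double knockdown and 88.6, 92.7 and 90.3 in WT. Replicate 3 of BEAF-32 RNAi lay among the Cp190 RNAi Chro RNAi libraries, although below every WT library. The log2 fold change was 0.46 ± 0.18 with all 3 libraries (edgeR adjusted p = 0.158) and 0.77 ± 0.086 with replicates 1 and 2 (adjusted p = 2.37e-11).

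Cp190 was measured at 328, 329 and 232 CPM in BEAF-32 RNAi, where it was not targeted, at 315, 287 and 289.9 where it was, and at 436, 436 and 423 in WT. Chro was measured at 223, 221 and 101 CPM in BEAF-32 RNAi, at 204.9, 187 and 197 in the double knockdown and at 318, 333 and 338 in WT. Both transcripts were below WT in every library of both knockdowns, and replicate 3 of BEAF-32 RNAi held less of each than any library of the double knockdown. With all 3 libraries the log2 fold changes were 0.0048 ± 0.12 for Cp190 (edgeR adjusted p = 0.99) and 0.11 ± 0.22 for Chro (adjusted p = 0.828). Without replicate 3 both were lower in the double knockdown, with log2 fold changes of -0.15 ± 0.053 for Cp190 (adjusted p = 0.0223) and -0.18 ± 0.055 for Chro (adjusted p = 0.00476). Dref, the partner target of the third knockdown, stood at 144, 146 and 85.3 CPM in BEAF-32 RNAi and 156, 138 and 145 in the double knockdown (log2 fold change 0.22 ± 0.16, edgeR adjusted p = 0.446, and 0.0098 ± 0.06 without replicate 3). The counts cover whole transcripts, so these levels say nothing of protein. From its own assays the paper reports that the knockdowns strongly and specifically lowered the mRNA and protein of their targets.

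**Figure D1:**
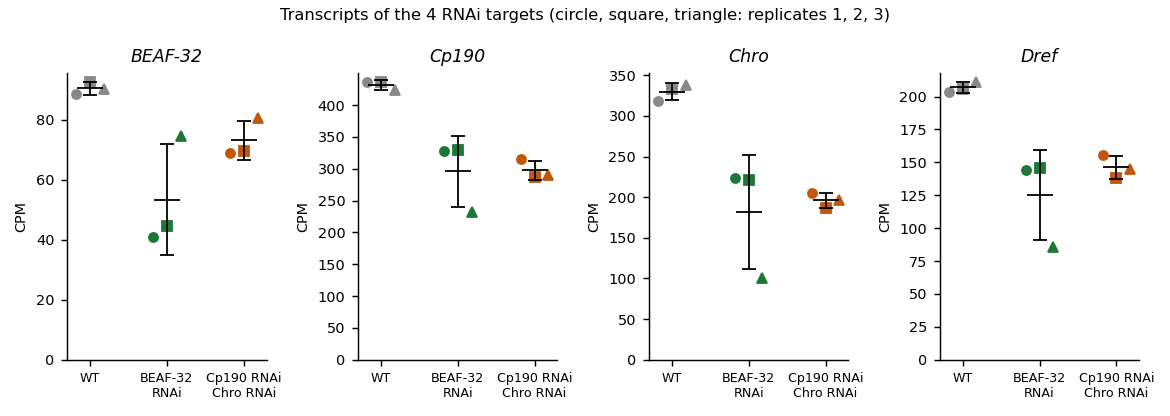
CPM (y axis, from 0) of the 4 RNAi targets in WT and both knockdowns, with a symbol for each library and the mean ± SD in black. Cp190 and Chro are below WT in all 6 knockdown libraries, and the triangle of BEAF-32 RNAi (replicate 3) lies away from its group in each panel.

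With all 3 BEAF-32 RNAi libraries, 385 genes were higher in the double knockdown and 343 were lower, 728 of 10545 tested (6.9%, adjusted p under 0.05 in edgeR's quasi-likelihood F test). With replicates 1 and 2 only, 2090 were higher and 1854 lower, 3944 of 10395 tested (37.9%). Of the smaller set 727 genes were called in the same direction in both, 384 higher and 343 lower (6.89% of the genes tested), and no gene was called in opposite directions. Counts in the gene lists below are set against these shares: with all 3 libraries 3.65% of all genes were higher and 3.25% lower, and without replicate 3 20.1% and 17.8%. The split of the 728 calls turned with the scaling, test or filter, with 331 higher and 371 lower under RLE scaling, 329 and 370 with library size alone, 570 and 647 in DESeq2 and 377 and 434 with filterByExpr. Changes were mostly small: 160 genes of the first set and 801 of the second had log2 fold changes of 1 or more in size, and 55 and 326 of 2 or more. Of those 326 genes 197 were higher and 129 lower, and of the 55 genes 24 were higher and 31 lower. The first count rests on the spread pooled over all 12 libraries: with the 6 libraries of the 2 knockdowns alone edgeR called 30 genes (22 higher), and without replicate 3 it still called 3704. Leaving out any 1 Cp190 RNAi Chro RNAi library brought the count with all 3 BEAF-32 RNAi libraries to 265 to 361.

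Replicate 3 of BEAF-32 RNAi was not used for the larger set, and its position in that set can be read directly. In 2088 of the 3944 genes (52.9%) it lay past the Cp190 RNAi Chro RNAi mean, seen from replicates 1 and 2. In 1120 genes it lay between the means and in 736 on the other side of its own group. Among the 727 genes called in both fits it lay past that mean in 2. This small count follows largely from the choice of genes, because their call with all 3 libraries used replicate 3.

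**Figure D2:**
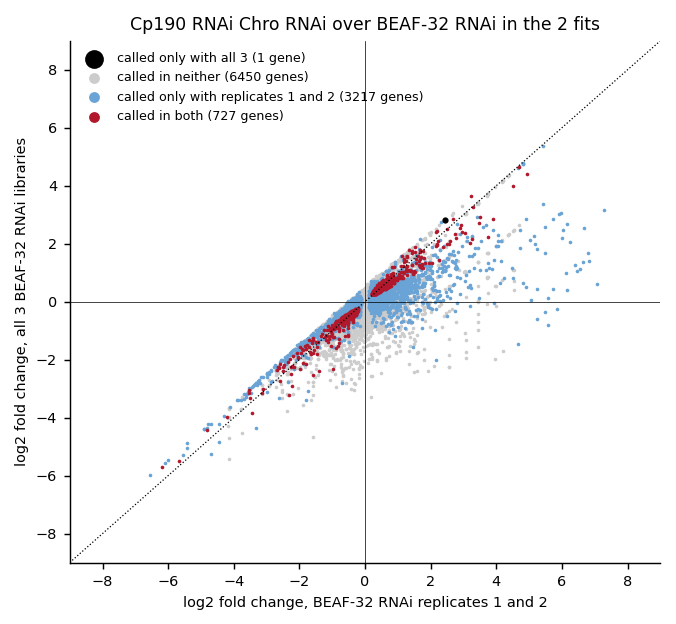
Each point is a gene, with its log2 fold change of Cp190 RNAi Chro RNAi over BEAF-32 RNAi from replicates 1 and 2 on the x axis and from all 3 BEAF-32 RNAi libraries on the y axis. The 727 genes called in both (red) have the same sign on both axes by definition. In 2086 (64.8%) of the 3217 called only without replicate 3 (blue) that library lay past the Cp190 RNAi Chro RNAi mean, a position that itself shrinks the change on the y axis. The dotted line marks equality.

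Among genes called in both fits, with groups that do not overlap (as in 22.4% of all genes tested) and at least 10 counts in each library of the higher group, 14 genes had the largest rises. fipi, an immunoglobulin family protein known from courtship song, was measured at 0.212, 0.0969 and 0.427 CPM in BEAF-32 RNAi, 4.71, 5.21 and 5.25 in the double knockdown and 0.577, 0.642 and 1.5 in WT. Its log2 fold change was 4.40 ± 0.47 (edgeR adjusted p = 3.62e-04), and 4.94 ± 0.55 without replicate 3. In BEAF-32 RNAi Dref RNAi fipi was at 5.15, 5.57 and 6.11 CPM. dpr16, of the dpr family of immunoglobulin proteins that bind DIP receptors on neurons, was near silent in BEAF-32 RNAi (0.106, 0.0969 and 0.284 CPM) and stood at 2.62, 2.61 and 2.46 in the double knockdown, with WT in between (0.577, 0.733 and 1.09). The log2 fold change of dpr16 was 3.97 ± 0.48 (adjusted p = 6.11e-04, and 4.50 ± 0.69 without replicate 3). bdl (borderless), an adhesion protein of the same family, was low in both knockdowns, at 0.106, 0.194 and 0.284 CPM in BEAF-32 RNAi and 1.40, 1.5 and 0.82 in the double knockdown against 10.1, 8.16 and 10.8 in WT. Between the knockdowns it differed by 2.63 ± 0.52 (adjusted p = 0.0127, and 2.91 ± 0.71 without replicate 3), so both were below WT and BEAF-32 RNAi was the lower.

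With all 3 libraries the smallest adjusted p belonged to twz, at 8.49, 8.14 and 8.53 CPM in BEAF-32 RNAi and 80.0, 81.1 and 82.9 in the double knockdown. WT lay between them at 20.6, 22.8 and 17.3, and BEAF-32 RNAi Dref RNAi was at 78.8, 74.8 and 68.1. The log2 fold change was 3.28 ± 0.11 (edgeR adjusted p = 3.76e-08, and 3.29 ± 0.12 without replicate 3), and here replicate 3 of BEAF-32 RNAi was level with its group. Against WT, set side by side, twz had a log2 fold change of 2.01 ± 0.10 in the double knockdown and -1.27 ± 0.11 in BEAF-32 RNAi, both from the same 3 WT libraries. Esp was measured at 1.17, 1.55 and 1.42 CPM in BEAF-32 RNAi, 8.37, 7.72 and 7.38 in the double knockdown and 9.53, 10.5 and 11.3 in WT. Its difference was 2.49 ± 0.19 (adjusted p = 4.02e-05, and 2.50 ± 0.28 without replicate 3), with the double knockdown close to WT and BEAF-32 RNAi low.

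CG43163 stood at 9.23, 7.36 and 4.12 CPM in BEAF-32 RNAi, 39.0, 39.1 and 35.9 in the double knockdown and 4.81, 6.51 and 5.85 in WT, a log2 fold change of 2.44 ± 0.22 (edgeR adjusted p = 1.12e-04, and 2.19 ± 0.15 without replicate 3). Wnt2, a secreted Wnt ligand, was at 3.29, 6.10 and 2.42 CPM in BEAF-32 RNAi, 22.6, 19.5 and 22.3 in the double knockdown and 6.35, 8.44 and 7.52 in WT (2.41 ± 0.25, adjusted p = 3.48e-04, and 2.17 ± 0.19 without replicate 3). Ugt35C1, a UDP-glycosyltransferase that conjugates foreign compounds, was at 1.49, 1.55 and 5.26 CPM in BEAF-32 RNAi, 17.0, 18.3 and 16.0 in the double knockdown and 2.79, 2.75 and 2.51 in WT (2.70 ± 0.35, adjusted p = 0.00122, and 3.48 ± 0.24 without replicate 3). grass, a serine protease upstream of the Toll receptor, was at 2.33, 1.84 and 4.41 CPM in BEAF-32 RNAi, 13.7, 15.8 and 12.4 in the double knockdown and 4.04, 3.39 and 4.68 in WT (2.32 ± 0.27, adjusted p = 5.86e-04, and 2.73 ± 0.24 without replicate 3). In all 4 genes every library of the double knockdown lay above every WT and every BEAF-32 RNAi library. The same held for every BEAF-32 RNAi Dref RNAi library.

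The other 5 of the 14 were also low. Irk2, an inwardly rectifying potassium channel, reached 3.66, 5.21 and 3.12 CPM in Cp190 RNAi Chro RNAi from 0.106, 0.388 and 1.28 in BEAF-32 RNAi, and Cyp12b2, a cytochrome P450, 1.40, 3.21 and 3.28 from 0.212, 0.388 and 1.00. CG8343 was at 1.48, 1.90 and 2.13 CPM against 0.212, 0.0969 and 0.427, Amnionless, the partner of cubilin in protein uptake, at 1.22, 1.20 and 2.54 against 0.212, 0.291 and 0.142, and Smyd4-2 at 1.92, 2.00 and 0.902 against 0.212, 0.194 and 0.427. Their log2 fold changes lay between 2.36 ± 0.55 and 2.94 ± 0.69, with adjusted p of 0.0127 to 0.0336 in edgeR. Without replicate 3 they were 3.90 ± 0.53 for Irk2, 3.05 ± 0.57 for Cyp12b2, 3.49 ± 0.77 for CG8343, 2.67 ± 0.70 for Amnionless and 2.90 ± 0.71 for Smyd4-2. dpr16 and Cyp12b2 overlap genes on the opposite strand and Amnionless overlaps CG3625 on its own strand, so their reads depend on how the authors' counting treated strand and shared exons.

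**Figure D3:**
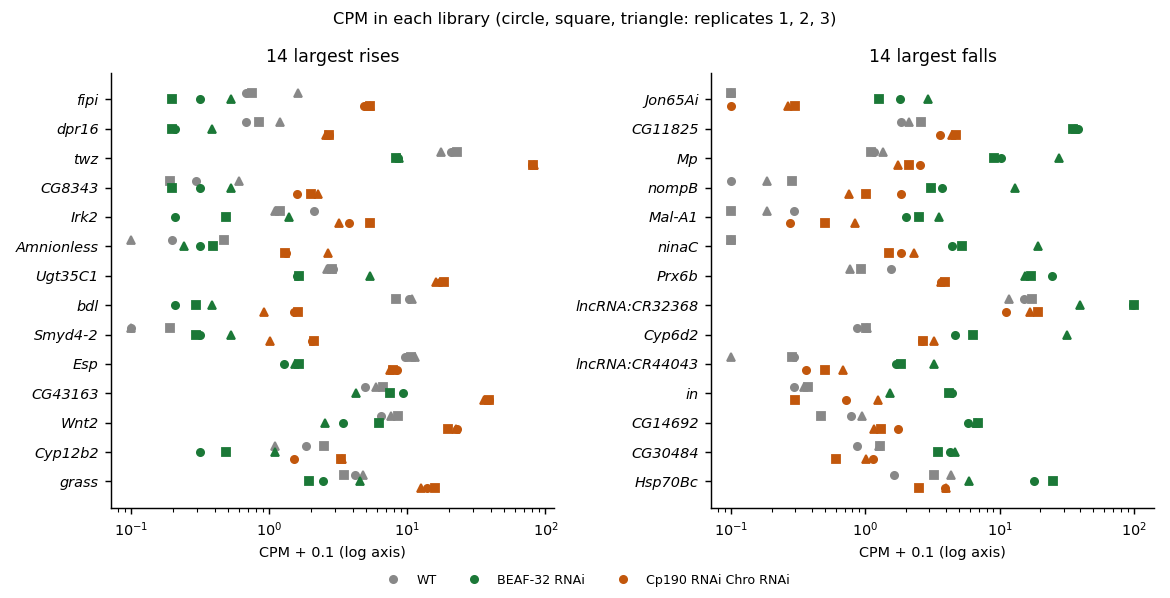
CPM + 0.1 (log x axis) of the 14 largest rises and 14 largest falls in each library of WT and both knockdowns. No BEAF-32 RNAi symbol overlaps the Cp190 RNAi Chro RNAi symbols of the same gene, as the rule required, and WT lies on either side or between.

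The 14 largest falls were genes of varied function, each highest in BEAF-32 RNAi. In each of them every BEAF-32 RNAi library also lay above every BEAF-32 RNAi Dref RNAi library, although BEAF-32 was targeted in both groups. CG11825 had the smallest adjusted p of the genes that were lower with all 3 libraries, at 38.1, 35.0 and 36.7 CPM in BEAF-32 RNAi, 3.49, 4.61 and 4.35 in the double knockdown and 1.73, 2.48 and 2.00 in WT (-3.14 ± 0.18, edgeR adjusted p = 6.13e-06, and -3.14 ± 0.17 without replicate 3). Mp (Multiplexin), the fly collagen XV/XVIII of basement membranes, was at 10.2, 9.01 and 27.6 CPM in BEAF-32 RNAi, 2.44, 2.00 and 1.64 in the double knockdown and 1.06, 1.01 and 1.25 in WT (-2.92 ± 0.41, adjusted p = 0.00167). In Mp replicate 3 was the highest library, and without it the difference was -2.24 ± 0.27. CG14692 was even within both groups, at 5.73, 6.78 and 6.54 CPM in BEAF-32 RNAi and 1.66, 1.20 and 1.07 in the double knockdown (-2.27 ± 0.29, adjusted p = 0.00112, and -2.25 ± 0.33 without replicate 3).

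lncRNA:CR32368, a long non-coding RNA gene of 3L, was measured at 98.8, 101 and 39.4 CPM in BEAF-32 RNAi, 11.1, 19.1 and 16.8 in the double knockdown and 15.1, 17.2 and 11.7 in WT. Its log2 fold change was -2.35 ± 0.33 (edgeR adjusted p = 0.00168) and -2.68 ± 0.12 without replicate 3, in which it was lower than in the other BEAF-32 RNAi libraries but still above the double knockdown. Of 639 long non-coding and antisense RNA genes tested, 17 were lower and 6 higher in both fits, beside 3.25% and 3.64% of all genes. lncRNA:CR44043 stood at 1.59, 1.74 and 3.13 CPM in BEAF-32 RNAi and 0.262, 0.401 and 0.574 in the double knockdown (-2.33 ± 0.58, and -1.98 ± 0.62 without replicate 3), and overlaps a gene on the opposite strand.

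ninaC, the myosin III of photoreceptors, had no count in any WT library and stood at 4.35, 5.13 and 19.3 CPM in BEAF-32 RNAi and 1.74, 1.40 and 2.21 in the double knockdown (-2.39 ± 0.57, edgeR adjusted p = 0.0372). nompB, an intraflagellar transport protein of ciliated sensory neurons, was at 3.61, 3.00 and 12.9 CPM in BEAF-32 RNAi and 1.74, 0.902 and 0.656 in the double knockdown (-2.53 ± 0.62, adjusted p = 0.0336). in (inturned), a planar polarity effector, was at 4.35, 4.07 and 1.42 CPM in BEAF-32 RNAi and 0.61, 0.2 and 1.15 in the double knockdown (-2.29 ± 0.57, adjusted p = 0.0349, and -2.62 ± 0.44 without replicate 3). In ninaC and nompB replicate 3 was the highest library of all, and the difference without it was -1.39 ± 0.33 and -1.58 ± 0.43. Of 20 tested photoreceptor genes 1 was lower (ninaC) and 0 were higher with all 3 libraries (median log2 fold change -0.27). Without replicate 3 the list had 1 higher and 5 lower of 20 (median -0.13). Over all genes 3.25% were lower with all 3 libraries and 17.8% without replicate 3. ninaE, the main rhodopsin, was at 0 to 0.284 CPM in BEAF-32 RNAi and 0 to 0.10 in the double knockdown.

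Jon65Ai, a serine protease of the gut, was at 1.70, 1.16 and 2.84 CPM in BEAF-32 RNAi and 0, 0.2 and 0.164 in the double knockdown (-3.84 ± 0.82, and -3.46 ± 0.82 without replicate 3). Mal-A1, a gut maltase, was at 1.91, 2.42 and 3.41 CPM in BEAF-32 RNAi and 0.174, 0.401 and 0.738 in the double knockdown (-2.50 ± 0.59, and -2.26 ± 0.60 without replicate 3). Cyp6d2, a cytochrome P450, rested most on replicate 3, at 4.56, 6.20 and 31.7 CPM in BEAF-32 RNAi against 2.53, 2.61 and 3.12, with a log2 fold change of -2.34 ± 0.62 with all 3 libraries and -0.97 ± 0.29 without it. CG30484 stood at 4.14, 3.39 and 4.55 CPM against 1.05, 0.501 and 0.902 (-2.27 ± 0.35, edgeR adjusted p = 0.00337, and -2.17 ± 0.40 without replicate 3).

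Heat shock genes made up a further group of falls in which replicate 3 was the low library. Hsp70Bc, a near-identical copy among the inducible Hsp70 chaperone genes, was at 17.8, 24.9 and 5.83 CPM in BEAF-32 RNAi and 3.84, 2.41 and 3.85 in the double knockdown (-2.27 ± 0.47, edgeR adjusted p = 0.016, and -2.65 ± 0.22 without replicate 3). Hsp70Bb stood at 31.3, 33.5 and 3.41 CPM in BEAF-32 RNAi and 2.53, 2.00 and 3.77 in the double knockdown (-3.03 ± 0.64, and -3.53 ± 0.21 without replicate 3). Hsp68 was at 95.8, 93.1 and 28.0 CPM in BEAF-32 RNAi and 30.7, 26.0 and 30.6 in the double knockdown (-1.32 ± 0.33, and -1.70 ± 0.093 without replicate 3). In both, replicate 3 lay among the double knockdown libraries. Reads that align equally well to several Hsp70 copies were left out as not unique, so levels of single copies are uncertain. Over whole libraries, reads without a unique alignment were most frequent in replicate 3 (29.5%). Of the 21 tested heat shock and chaperone genes 3 were lower and 0 higher with all 3 libraries (median log2 fold change -0.24, with 3.25% of all genes lower), and 11 lower and 3 higher without replicate 3 (median -0.53, with 17.8% lower).

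A run of 5 neighbouring genes on 2R (dm6, 10418718 to 10427915) was lower in Cp190 RNAi Chro RNAi as a block: Prx6c, CG11825, CG33474, Prx6b and CG12896 in chromosome order. Prx6c and Prx6b encode peroxiredoxins, enzymes that reduce peroxides. Reads that align equally well to both would have been left out as not unique, and how many there were was not tested. Prx6c was measured at 130.4, 117 and 61.7 CPM in BEAF-32 RNAi, 20.8, 20.3 and 23.6 in the double knockdown and 8.47, 5.50 and 4.68 in WT (-2.25 ± 0.26, edgeR adjusted p = 4.88e-04, and -2.52 ± 0.11 without replicate 3). Prx6b was at 24.4, 17.1 and 15.4 CPM in BEAF-32 RNAi, 3.58, 3.81 and 3.53 in the double knockdown and 1.44, 0.825 and 0.668 in WT (-2.38 ± 0.26, adjusted p = 4.62e-04, and -2.51 ± 0.21 without replicate 3). The order of the groups was the same in both, with WT lowest and the double knockdown between WT and BEAF-32 RNAi, and CG11825 (above) had it too. BEAF-32 RNAi Dref RNAi, in which BEAF-32 was also targeted, lay near Cp190 RNAi Chro RNAi and not near BEAF-32 RNAi. Prx6c was at 24.6, 22.5 and 27.2 CPM there, CG11825 at 4.85, 6.07 and 7.22 and Prx6b at 5.26, 3.34 and 4.22. Why both groups with BEAF-32 RNAi differ here was not tested.

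CG12896 stood at 2.55, 3.49 and 1.28 CPM in BEAF-32 RNAi, 0.61, 0.802 and 0.574 in the double knockdown and 0.192, 0.0917 and 0.0835 in WT (-1.89 ± 0.44, edgeR adjusted p = 0.0259, and -2.19 ± 0.50 without replicate 3). CG33474 was at 4.03, 5.23 and 4.12 CPM in BEAF-32 RNAi, 1.66, 2.21 and 1.31 in the double knockdown and 2.12, 2.29 and 3.34 in WT (-1.38 ± 0.31, adjusted p = 0.0245, and -1.45 ± 0.33 without replicate 3). In CG33474 the order thus differed, with the WT mean above that of the double knockdown (2.58 against 1.72 CPM). CG12896 and CG33474 were added because of their place in the run, after their values were seen. CG33474 overlaps CG11825 on the opposite strand, so without strand the reads of these 2 genes cannot be told apart. The neighbour on the left, SLO2, was near silent, at 0.106, 0.291 and 0.711 CPM in BEAF-32 RNAi and 0, 0.1 and 0.164 in the double knockdown, and was not called (-1.84 ± 1.06, edgeR adjusted p = 0.339, and -1.09 ± 1.26 without replicate 3). Both genes to the right of the run differed by far less. RanBPM was at 255, 262 and 329 CPM in BEAF-32 RNAi and 283, 256 and 261 in the double knockdown (-0.081 ± 0.098, and 0.04 ± 0.055 without replicate 3). CG12895 was at 21.0, 24.2 and 22.6 CPM in BEAF-32 RNAi and 22.3, 27.0 and 26.0 in the double knockdown (0.15 ± 0.11, and 0.14 ± 0.12 without replicate 3). The run was the longest among tested genes called in both fits; 5 others held 3 or 4 genes.

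In the TAD lists of the same knockdowns, made by the authors from 2 merged Hi-C replicates each, no border fell inside the run in either list. In the Cp190 RNAi Chro RNAi list a border lay 0.847 kb before the run and the next one 2.42 kb after it, a domain of 12.5 kb. The BEAF-32 RNAi list had its nearest border before the run 166 kb away and the next one 3.23 kb after it, a domain of 178 kb. Each list is a single call on pooled libraries, so this difference has no replicate check. The promoters of all 5 genes, taken as the 250 bases before and 50 bases from the RefSeq start site, held 1 or 2 copies of CGATA on either strand, as 50.8% of promoters of tested genes held at least 1.

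**Figure D4:**
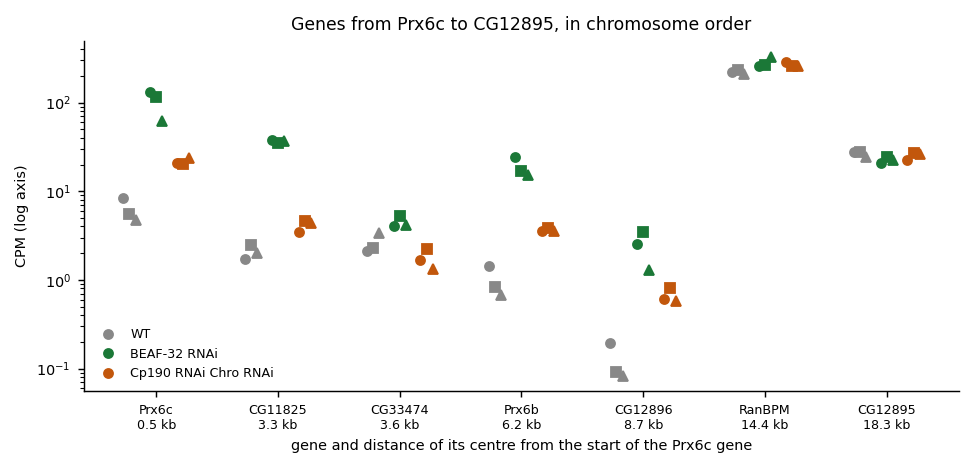
CPM (log y axis) of the genes from Prx6c to CG12895 in WT and both knockdowns, with a symbol for each library and the distance of each gene's centre from the start of Prx6c under its name. The first 5 genes are lower in the double knockdown than in BEAF-32 RNAi in every library, and RanBPM and CG12895 are level.

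Genes of the cytoplasmic ribosome were lower in Cp190 RNAi Chro RNAi as a group. Of 84 ribosomal protein genes tested 41 were lower and 0 higher with all 3 BEAF-32 RNAi libraries, where 3.25% of all genes were lower. The median log2 fold change was -0.38, beside -0.03 over all genes. With replicates 1 and 2 only, 68 were lower and 0 higher (median -0.28, all genes -0.00034), where 17.8% of all genes were lower. Their summed level was 93145, 92056 and 109815 CPM in the BEAF-32 RNAi libraries, 70125 to 81142 in Cp190 RNAi Chro RNAi and 86382 to 88436 in WT. BEAF-32 RNAi thus lay above WT, with replicate 3 the highest, and the double knockdown below it.

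RpL14, a protein of the large subunit, was at 1103, 1066 and 1197 CPM in BEAF-32 RNAi and 616, 720.1 and 684 in the double knockdown (-0.74 ± 0.083, edgeR adjusted p = 4.88e-04, and -0.69 ± 0.053 without replicate 3). RpL3, which helps form the peptidyl transferase centre, was at 2362, 2406 and 2192 CPM in BEAF-32 RNAi and 1551, 1542 and 1509.6 in the double knockdown (-0.60 ± 0.064, adjusted p = 4.10e-04, and -0.64 ± 0.047 without replicate 3). RpL22 was at 700.2, 730.3 and 793 CPM in BEAF-32 RNAi and 487, 502 and 489 in the double knockdown (-0.59 ± 0.071, adjusted p = 6.34e-04, and -0.54 ± 0.05 without replicate 3). RpS9, of the small subunit, was at 1315, 1335 and 1385 CPM in BEAF-32 RNAi and 912, 1029 and 942 in the double knockdown (-0.48 ± 0.067, adjusted p = 0.00163, and -0.47 ± 0.049 without replicate 3). The groups did not overlap in any of these 4, picked by smallest p, nor in 66 of the 84 genes of the list, beside 22.4% of all genes tested. In BEAF-32 RNAi Dref RNAi RpL3 was at 1633, 1595 and 1617 CPM and RpL14 at 794, 766 and 693. RpL22 was at 502, 485 and 499 there and RpS9 at 1036, 1065 and 1009. All 4 were thus below every BEAF-32 RNAi library in that group too. No ribosomal protein gene of the mitochondrial list was called with all 3 libraries (0 higher and 0 lower of 72, median -0.041), and 3 were higher and 7 lower without replicate 3. At an unadjusted p under 0.05 edgeR counted 5 of these 72 genes with all 3 libraries, and DESeq2 called 3.

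**Figure D5:**
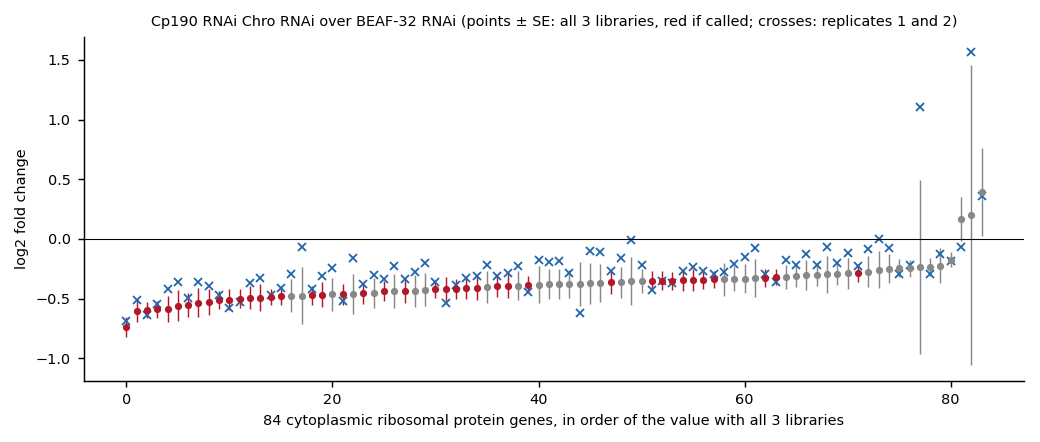
Log2 fold change of Cp190 RNAi Chro RNAi over BEAF-32 RNAi (y axis) of 84 cytoplasmic ribosomal protein genes in order of their value. Points with SE are from all 3 BEAF-32 RNAi libraries, red for the 41 genes called, and crosses from replicates 1 and 2; nearly all lie below 0.

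The promoters of these 4 genes are shown because the motif of BEAF-32 was more frequent in this gene group than over all genes. CGATA or its complement TATCG occurred in 62 of 84 ribosomal protein promoters (73.8%) and in 5335 of 10496 promoters of tested genes (50.8%). The palindrome TATCGATA, which holds the motif on both strands and is the element bound by Dref, occurred in 25 (29.8%) and in 1228 (11.7%). Among genes called in both fits the shares were near those of all genes, at 51.3% of 382 higher and 52.8% of 341 lower genes for CGATA and 12.6% and 15% for TATCGATA. A match is a run of letters in a window and not a measured binding site. The sequences are read from the RefSeq dm6 genome on the strand of the gene, from 250 bases before the start site to the 50th base of the gene, with CGATA and TATCG in capitals.
RpL3, chr3R:11221644-11221943, plus strand: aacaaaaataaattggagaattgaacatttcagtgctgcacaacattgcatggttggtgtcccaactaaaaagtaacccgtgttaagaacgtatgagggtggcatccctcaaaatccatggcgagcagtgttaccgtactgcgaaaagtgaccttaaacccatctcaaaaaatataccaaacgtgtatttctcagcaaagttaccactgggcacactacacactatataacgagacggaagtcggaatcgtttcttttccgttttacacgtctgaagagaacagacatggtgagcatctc
RpL14, chr3L:8600756-8601055, plus strand: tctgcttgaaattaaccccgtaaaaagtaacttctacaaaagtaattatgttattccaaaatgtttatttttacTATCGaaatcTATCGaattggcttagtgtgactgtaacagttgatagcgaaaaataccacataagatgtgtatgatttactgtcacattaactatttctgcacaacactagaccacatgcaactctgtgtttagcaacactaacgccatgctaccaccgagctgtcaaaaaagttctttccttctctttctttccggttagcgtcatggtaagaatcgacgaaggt
RpL22, chrX:765081-765380, minus strand: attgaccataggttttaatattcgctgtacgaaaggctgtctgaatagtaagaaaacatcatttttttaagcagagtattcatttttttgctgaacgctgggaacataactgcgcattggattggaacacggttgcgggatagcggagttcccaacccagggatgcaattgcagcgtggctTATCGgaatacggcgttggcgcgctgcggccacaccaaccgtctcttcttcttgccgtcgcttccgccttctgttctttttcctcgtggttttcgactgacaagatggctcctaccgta
RpS9, chr3L:9511482-9511781, minus strand: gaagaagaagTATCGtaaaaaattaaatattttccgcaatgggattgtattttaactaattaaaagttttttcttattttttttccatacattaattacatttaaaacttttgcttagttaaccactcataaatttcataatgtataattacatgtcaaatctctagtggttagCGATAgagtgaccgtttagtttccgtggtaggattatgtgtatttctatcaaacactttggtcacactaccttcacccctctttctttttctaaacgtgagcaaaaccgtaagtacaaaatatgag
RpL3 held no copy, RpL14 and RpS9 held 2 and RpL22 held 1. All 4 genes were picked by smallest p among those called lower, so a link between copies and the change was not tested. The copies of RpL14 began 176 and 166 bases before the start site, that of RpL22 69 bases and those of RpS9 240 and 76 bases before it.

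Outside the ribosome, Myc, the transcription factor that drives ribosome production, was at 251, 319.6 and 359.7 CPM in BEAF-32 RNAi and 165, 166 and 197 in the double knockdown (-0.82 ± 0.13, edgeR adjusted p = 0.00365, and -0.70 ± 0.069 without replicate 3). The list of insulin and TOR genes, which holds Myc, had 2 higher and 1 lower of 26 tested genes (median log2 fold change 0.06), and 9 higher and 3 lower of 25 without replicate 3 (median 0.018). Over all genes 6.9% were called with all 3 libraries and 37.9% without replicate 3. Sesn (Sestrin), an inhibitor of TOR, was at 46.0, 52.0 and 37.4 CPM against 75.9, 68.3 and 73.7 in the double knockdown and so was higher in the double knockdown (0.68 ± 0.10, adjusted p = 0.00335, and 0.56 ± 0.082 without replicate 3).

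Lipid genes called with all 3 libraries were all higher. The list of lipid synthesis and storage had 7 higher and 0 lower of 31 tested genes (median log2 fold change 0.19), and 23 higher and 1 lower of 31 without replicate 3 (median 0.42), beside 3.65% and 20.1% of all genes called higher. FASN1, the main fatty acid synthase of the fly, was at 3029, 2893 and 2029 CPM in BEAF-32 RNAi, 4509, 4114 and 4252 in the double knockdown and 3693, 3758 and 3790.3 in WT (0.70 ± 0.12, edgeR adjusted p = 0.00752, and 0.53 ± 0.049 without replicate 3). ACC, which makes the malonyl-CoA that FASN1 uses, was at 553, 568 and 532 CPM in BEAF-32 RNAi, 855, 764 and 790.1 in the double knockdown and 679, 695 and 698 in WT (0.54 ± 0.065, adjusted p = 6.11e-04, and 0.51 ± 0.05 without replicate 3). Both were below WT in every BEAF-32 RNAi library and above WT in every library of the double knockdown. SREBP, the transcription factor that drives fatty acid synthesis genes, was at 1264, 1272 and 1910.1 CPM in BEAF-32 RNAi, 2276, 2114 and 2097 in the double knockdown and 1672, 1699 and 1737 in WT (0.55 ± 0.13, adjusted p = 0.0329, and 0.77 ± 0.05 without replicate 3). Replicates 1 and 2 were below WT in SREBP, and replicate 3 was above it. SREBP is named outside the rule for list genes, after its values were seen.

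Agpat3, an acyltransferase of glycerolipid synthesis, was at 153, 144 and 130.4 CPM in BEAF-32 RNAi and 179.9, 189 and 189 in the double knockdown (0.38 ± 0.072, edgeR adjusted p = 0.00996, and 0.32 ± 0.057 without replicate 3). bmm (brummer), the lipase that opens lipid droplets, was higher too, at 136, 125 and 139 against 88.3, 87.9 and 86.4 (0.61 ± 0.069, adjusted p = 4.91e-04, and 0.60 ± 0.067 without replicate 3), so the members that were higher include an enzyme that breaks fat down. The summed level of the list was 8685, 8591 and 8845 CPM in BEAF-32 RNAi and 11814 to 12534 in the double knockdown.

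The glycolysis list had 2 higher and 0 lower of 18 tested genes (median log2 fold change 0.24), and 14 higher and 0 lower of 18 without replicate 3 (median 0.47), beside 3.65% and 20.1% of all genes called higher. Gapdh1 was at 596, 641 and 792 CPM in BEAF-32 RNAi and 864, 937 and 916 in the double knockdown (0.42 ± 0.10, edgeR adjusted p = 0.0293, and 0.55 ± 0.053 without replicate 3). tgo (tango), the partner of the hypoxia factor, was at 118, 110.4 and 176 CPM in BEAF-32 RNAi and 225, 199.8 and 209.8 in the double knockdown (0.65 ± 0.14, adjusted p = 0.0208, and 0.89 ± 0.062 without replicate 3). In both genes replicate 3 was the highest BEAF-32 RNAi library. The summed level of the list was 6208, 6392 and 11600.1 CPM in BEAF-32 RNAi and 8874 to 9232 in the double knockdown, so replicate 3 stood above the double knockdown and replicates 1 and 2 below it. The respiratory chain list had 0 higher and 1 lower of 78 tested genes (median log2 fold change 0.0056), and 9 higher and 13 lower of 77 without replicate 3 (median -0.0094).

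Genes of the unfolded protein response of the endoplasmic reticulum (ER) and of ATF4 had 4 higher and 2 lower of 31 tested genes (median log2 fold change 0.26), and 23 higher and 2 lower of 31 without replicate 3 (median 0.56), beside 3.65% and 20.1% of all genes called higher and 3.25% and 17.8% called lower. Herp, Edem2 and Der-2, which act in the removal of misfolded proteins from the ER, were called in both fits. Herp was at 56.7, 58.6 and 80.1 CPM in BEAF-32 RNAi and 95.6, 90.5 and 92.6 in the double knockdown (0.52 ± 0.11, edgeR adjusted p = 0.0192, and 0.68 ± 0.074 without replicate 3). Edem2 was at 101, 95.7 and 143 CPM in BEAF-32 RNAi and 164, 149.9 and 158 in the double knockdown (0.47 ± 0.13, adjusted p = 0.0449, and 0.67 ± 0.064 without replicate 3). Der-2 was at 67.7, 58.9 and 69.8 CPM in BEAF-32 RNAi and 91.5, 85.7 and 81.8 in the double knockdown (0.40 ± 0.081, adjusted p = 0.0144, and 0.45 ± 0.077 without replicate 3). The list's summed level was 9008, 8968 and 17868 CPM in BEAF-32 RNAi and 14090.5 to 14773 in the double knockdown, so replicate 3 was the highest of the 6.

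The 2 members that were lower are stress regulators. trbl (Tribbles), a pseudokinase, was at 287, 289 and 422 CPM in BEAF-32 RNAi, 190.3, 196 and 205.4 in the double knockdown and 196, 187 and 194 in WT (-0.75 ± 0.13, edgeR adjusted p = 0.00553, and -0.55 ± 0.053 without replicate 3). Gadd45, a stress-induced gene upstream of JNK, was at 144, 148 and 402 CPM in BEAF-32 RNAi, 101, 106 and 97.5 in the double knockdown and 50.6, 57.9 and 69.6 in WT (-1.18 ± 0.32, adjusted p = 0.0466), and without replicate 3 it differed by -0.53 ± 0.073. The groups did not overlap in either gene, nor in 6 of the 31 genes of the list with these included, beside 22.4% of all genes tested.

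The cytochrome P450 list had 2 higher and 2 lower of 59 tested genes (median log2 fold change -0.37), and 16 higher and 8 lower of 55 without replicate 3 (median 0.16), near the 6.9% of all genes called with all 3 libraries. The glutathione S-transferase list had 1 higher and 0 lower of 30 tested genes (median log2 fold change -0.12), and 13 higher and 4 lower of 30 without replicate 3 (median 0.40). The list of ABC and MFS transporters had 5 higher and 1 lower of 26 tested genes (median log2 fold change -0.10), and 12 higher and 2 lower of 25 without replicate 3 (median 0.41). All 3 medians differ in sign between the fits. Over all genes 3.65% were higher and 3.25% lower with all 3 libraries, and 20.1% and 17.8% without replicate 3. Orct, an organic cation transporter, was at 65.1, 57.4 and 45.1 CPM in BEAF-32 RNAi, 155, 143 and 143 in the double knockdown and 39.6, 40.8 and 44.7 in WT (1.39 ± 0.12, edgeR adjusted p = 8.55e-05, and 1.26 ± 0.073 without replicate 3). Its neighbour Orct2 was at 129, 127 and 199 CPM in BEAF-32 RNAi, 409, 402 and 402 in the double knockdown and 128, 129 and 146 in WT (1.42 ± 0.15, adjusted p = 2.94e-04, and 1.66 ± 0.057 without replicate 3). Of WT and the 2 knockdowns compared here, both were highest in the double knockdown, in every library. BEAF-32 RNAi Dref RNAi stood at 144, 135 and 140 CPM in Orct and at 460, 460 and 449 in Orct2. Abca3, an ABC transporter, was at 0.637, 1.65 and 5.55 CPM in BEAF-32 RNAi and 11, 10.6 and 11.9 in the double knockdown (2.17 ± 0.48, adjusted p = 0.0217), and 3.25 ± 0.29 without replicate 3.

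The list of other antioxidant genes had 2 higher and 3 lower of 28 tested genes (median log2 fold change -0.0031), and 12 higher and 3 lower of 28 without replicate 3 (median 0.18). Cat (catalase) was at 334, 341 and 300.4 CPM in BEAF-32 RNAi and 428, 462 and 431 in the double knockdown (0.44 ± 0.079, edgeR adjusted p = 0.00814, and 0.38 ± 0.054 without replicate 3). Men, the malic enzyme that makes NADPH, was at 517, 534 and 632 CPM in BEAF-32 RNAi and 757, 730.4 and 739 in the double knockdown (0.40 ± 0.08, adjusted p = 0.0127, and 0.49 ± 0.05 without replicate 3). Those that were lower are Prx6b and Prx6c of the run on 2R and Trx2, a thioredoxin, at 68.9, 70.5 and 71.0 CPM in BEAF-32 RNAi and 43.4, 58.2 and 51.1 in the double knockdown (-0.46 ± 0.10, adjusted p = 0.0189, and -0.46 ± 0.089 without replicate 3). The median of this list differs in sign between the fits. Of all genes 3.65% were higher and 3.25% lower with all 3 libraries, and 20.1% and 17.8% without replicate 3.

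The JNK list had 0 higher and 4 lower of 22 tested genes (median log2 fold change -0.041), and 3 higher and 5 lower of 22 without replicate 3 (median -0.0056), beside 3.25% and 17.8% of all genes called lower. scaf (scarface), a secreted protease homologue induced by JNK, was at 92.1, 95.4 and 62.7 CPM in BEAF-32 RNAi, 24.9, 28.0 and 28.1 in the double knockdown and 23.1, 23 and 21.3 in WT (-1.63 ± 0.14, edgeR adjusted p = 1.05e-04, and -1.80 ± 0.094 without replicate 3). Ets21C, an ETS transcription factor of the same response, was at 128, 124 and 181 CPM in BEAF-32 RNAi, 93, 85.6 and 84.1 in the double knockdown and 41.3, 44.2 and 50.1 in WT (-0.72 ± 0.13, adjusted p = 0.00916, and -0.53 ± 0.071 without replicate 3). puc, the phosphatase that switches JNK off, differed by -0.25 ± 0.066 (adjusted p = 0.0427, and -0.30 ± 0.058 without replicate 3), from 171, 171 and 157 to 141, 136 and 142 CPM. In all 3 genes BEAF-32 RNAi was above WT in every library.

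Rel (Relish), the NF-kB factor of the Imd pathway, was at 249.8, 245 and 255 CPM in BEAF-32 RNAi and 189.7, 172 and 176 in the double knockdown (-0.48 ± 0.066, edgeR adjusted p = 0.00163, and -0.47 ± 0.056 without replicate 3). Its list had 0 higher and 2 lower of 27 tested genes (median log2 fold change -0.48), and 3 higher and 6 lower of 27 without replicate 3 (median -0.12). The Toll list had 2 higher and 0 lower of 23 tested genes (median log2 fold change 0.057), and 9 higher and 3 lower of 23 without replicate 3 (median 0.046). Over all genes 3.65% were higher and 3.25% lower with all 3 libraries, and 20.1% and 17.8% without replicate 3. Toll-7, a Toll family receptor, was at 53.6, 54.5 and 24.6 CPM in BEAF-32 RNAi, 130.4, 117 and 125 in the double knockdown and 15.6, 12.9 and 15.4 in WT (1.48 ± 0.22, adjusted p = 0.00302, and 1.20 ± 0.078 without replicate 3). AGO2, the slicer that carries out RNA interference, was at 936, 903 and 964 CPM in BEAF-32 RNAi, 622, 657 and 588 in the double knockdown and 633, 641 and 662 in WT (-0.59 ± 0.07, adjusted p = 6.11e-04, and -0.57 ± 0.05 without replicate 3). AGO2 was the only one of 15 RNAi genes called with all 3 libraries, and without replicate 3 there were 6 higher and 4 lower.

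The Notch list had 3 higher and 1 lower of 29 tested genes (median log2 fold change -0.01), and 12 higher and 5 lower of 29 without replicate 3 (median 0.14). Delta, the ligand, was at 22.9, 22.8 and 23.7 CPM in BEAF-32 RNAi and 10.4, 8.12 and 12.1 in the double knockdown (-1.18 ± 0.16, edgeR adjusted p = 0.00123, and -1.16 ± 0.15 without replicate 3). fng (fringe), the glycosyltransferase that modifies Notch, was at 48.3, 43.9 and 33.6 CPM in BEAF-32 RNAi and 74.9, 67.4 and 72.8 in the double knockdown (0.77 ± 0.12, adjusted p = 0.00353, and 0.64 ± 0.084 without replicate 3). Ligand and modifier thus differed in opposite directions. The Wnt list had 3 higher and 0 lower of 26 tested genes (median log2 fold change 0.18), and 8 higher and 4 lower of 25 without replicate 3 (median 0.076). nkd (naked cuticle), an inhibitor of the pathway, was at 167, 163 and 224 CPM in BEAF-32 RNAi, 463, 423 and 446 in the double knockdown and 276, 259 and 266 in WT (1.26 ± 0.11, adjusted p = 1.17e-04, and 1.42 ± 0.057 without replicate 3). Wnt5, a ligand that guides axons, was at 74.1, 74.0 and 101 CPM in BEAF-32 RNAi, 124, 115 and 116 in the double knockdown and 117, 112 and 114 in WT (0.52 ± 0.11, adjusted p = 0.0174, and 0.67 ± 0.069 without replicate 3). With Wnt2 these were the members of the list that were higher. Both lists are set beside 3.65% higher and 3.25% lower over all genes, and 20.1% and 17.8% without replicate 3.

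Genes of the cell surface and matrix changed in both directions. The lists of such genes are set beside 3.65% higher and 3.25% lower over all genes, and 20.1% and 17.8% without replicate 3. The basement membrane and matrix list had 6 higher and 3 lower of 35 tested genes (median log2 fold change 0.098), and 11 higher and 10 lower of 35 without replicate 3 (median 0.08). LanA, the laminin alpha chain, was at 2674, 2501 and 1637 CPM in BEAF-32 RNAi, 3835, 3389.7 and 3531 in the double knockdown and 4106, 4170.5 and 4053 in WT (0.66 ± 0.14, edgeR adjusted p = 0.0202). mew, an integrin alpha subunit that binds laminin, was at 61.8, 69.5 and 15.9 CPM in BEAF-32 RNAi, 18.7, 15.4 and 15.4 in the double knockdown and 26.5, 28.9 and 28.6 in WT (-1.58 ± 0.38, adjusted p = 0.03). Replicate 3 of BEAF-32 RNAi lay with the double knockdown for mew and farthest from it for LanA, and without it mew differed by -1.99 ± 0.11 and LanA by 0.47 ± 0.051.

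The list of neuronal adhesion and guidance genes had 3 higher and 2 lower of 41 tested genes (median log2 fold change 0.24), and 19 higher and 8 lower of 41 without replicate 3 (median 0.26). NetA, the guidance cue Netrin-A, was at 306, 314 and 272 CPM in BEAF-32 RNAi, 433, 422 and 437 in the double knockdown and 185, 187 and 201 in WT (0.53 ± 0.071, edgeR adjusted p = 0.00133, and 0.47 ± 0.051 without replicate 3). Fas2 (Fasciclin 2), an adhesion protein of axons, was at 373, 377 and 404 CPM in BEAF-32 RNAi, 298, 263 and 277 in the double knockdown and 507, 502 and 499 in WT (-0.46 ± 0.071, adjusted p = 0.00346, and -0.43 ± 0.053 without replicate 3). Ama (Amalgam), a secreted immunoglobulin protein, was at 33.4, 29.6 and 21.3 CPM in BEAF-32 RNAi, 15.6, 13.7 and 21.0 in the double knockdown and 63.7, 57.1 and 60.0 in WT (-0.75 ± 0.18, adjusted p = 0.03, and -0.90 ± 0.13 without replicate 3). Fas2 and Ama were below WT in both knockdowns and lower in the double knockdown than in BEAF-32 RNAi.

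Lysosomal enzymes called in both fits included CtsL1 and Hexo2, both higher. The list of autophagy and lysosome genes had 3 higher and 1 lower of 26 tested genes (median log2 fold change 0.11), and 11 higher and 2 lower of 26 without replicate 3 (median 0.093). Of all genes 3.65% were higher and 3.25% lower with all 3 libraries, and 20.1% and 17.8% without replicate 3. CtsL1 (cathepsin L1), a lysosomal protease, was at 929.9, 900.0 and 865 CPM in BEAF-32 RNAi, 1387, 1447 and 1360.1 in the double knockdown and 384, 374 and 395 in WT (0.64 ± 0.062, edgeR adjusted p = 2.16e-04, and 0.61 ± 0.049 without replicate 3). Hexo2, a hexosaminidase, was at 241, 252 and 214 CPM in BEAF-32 RNAi, 425, 427 and 436 in the double knockdown and 421, 429.9 and 430.1 in WT (0.86 ± 0.071, adjusted p = 7.95e-05, and 0.80 ± 0.051 without replicate 3), with the double knockdown level with WT.

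Markers of cell types were compared because fewer cells of a type and less RNA per cell cannot be told apart in bulk libraries. Counts in all marker lists are set beside 3.65% higher and 3.25% lower over all genes, and 20.1% and 17.8% without replicate 3. The hemocyte list (blood cells) had 3 higher and 0 lower of 23 tested genes (median log2 fold change 0.059), and 9 higher and 5 lower of 23 without replicate 3 (median 0.091). Its summed level was 8971, 9118 and 7594 CPM in BEAF-32 RNAi and 9784 to 10448 in the double knockdown. Called members were NimC4, a phagocytosis receptor (71.2, 69.9 and 31.0 against 173, 182 and 158 CPM, 1.57 ± 0.23, and 1.27 ± 0.069 without replicate 3), PPO1, a prophenoloxidase (0.531, 0.194 and 1.00 against 2.01, 3.01 and 2.46, 2.18 ± 0.42, and 2.76 ± 0.51 without replicate 3), and drpr (draper), the engulfment receptor also used by glia (1157, 1188 and 1393 against 1589.8, 1476 and 1542, 0.30 ± 0.077, and 0.39 ± 0.048 without replicate 3). Hml, the plasmatocyte marker, was at 0 to 2.42 CPM in BEAF-32 RNAi and 0.410 to 2.44 in Cp190 RNAi Chro RNAi. srp, of the same list and of the fat body list, was at 542 to 807 CPM in BEAF-32 RNAi. It was at 594 to 679 in the double knockdown and 786 to 816 in WT.

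Neuron markers had 1 higher and 0 lower of 24 tested genes (median log2 fold change -0.087), and 7 higher and 2 lower of 24 without replicate 3 (median 0.094). Their summed level was 2022, 1876 and 2974 CPM in BEAF-32 RNAi and 2831 to 3187 in the double knockdown. The neuronal gene elav was present at 73.6 to 111 CPM in BEAF-32 RNAi and 96.2 to 114 in the double knockdown and nSyb under 1 CPM in all. Glial markers had 1 higher and 0 lower of 24 tested genes (median log2 fold change -0.037), and 7 higher and 4 lower of 23 without replicate 3 (median -0.024), and a summed level of 4107, 4194 and 3299.6 CPM against 4214 to 4428. The glial gene repo was at 30.1 to 88.4 CPM in BEAF-32 RNAi and 75.6 to 81.8 in the double knockdown.

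Neuroblast markers had 0 higher and 0 lower of 18 tested genes (median log2 fold change -0.71), and 1 higher and 1 lower of 16 without replicate 3 (median -0.24), and a summed level of 1223, 1233 and 1099 CPM against 1174 to 1262. At an unadjusted p under 0.05 edgeR counted 5 of the 18 with all 3 libraries, and DESeq2 called 1. The neuroblast gene mira was at 1.80 to 4.84 CPM in BEAF-32 RNAi and 1.70 to 5.14 in the double knockdown, beside 35.7 to 38.4 in WT. The libraries of this nervous system line thus held elav, repo and srp, and the neuroblast gene wor was at or near 0. The part of these marker levels in the other results was not tested.

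Fat body markers had 1 higher and 0 lower of 16 tested genes (median log2 fold change 0.083), and 7 higher and 0 lower of 15 without replicate 3 (median 0.18), with summed levels of 1635, 1614 and 1529 CPM in BEAF-32 RNAi and 1855 to 1984 in the double knockdown. Muscle genes had 1 higher and 0 lower of 26 tested genes (median log2 fold change -0.078), and 6 higher and 3 lower of 25 without replicate 3 (median 0.089), with summed levels of 2187, 2138 and 2589 CPM against 2368 to 2586. Germline genes had 1 higher and 0 lower of 19 tested genes (median log2 fold change -0.067), and 4 higher and 5 lower of 19 without replicate 3 (median -0.14), with summed levels of 1206, 1119 and 877 CPM against 1114 to 1207. The called germline gene was mael (maelstrom), a piRNA pathway protein, at 25.6, 25 and 45.8 CPM in BEAF-32 RNAi, 59.3, 55.6 and 55.0 in the double knockdown and 5.68, 3.30 and 4.84 in WT (0.83 ± 0.21, edgeR adjusted p = 0.0387, and 1.16 ± 0.11 without replicate 3).

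Lists of chromatin and cell division genes are set beside the shares over all genes, 3.65% higher and 3.25% lower with all 3 libraries and 20.1% and 17.8% without replicate 3. Insulator proteins and their cofactors had 0 higher and 0 lower of 19 tested genes (median log2 fold change 0.021), and 5 higher and 6 lower of 19 without replicate 3 (median 0.017). Cohesin, condensin and Top2 had 0 higher and 0 lower of 22 tested genes (median log2 fold change 0.054), and 3 higher and 6 lower of 22 without replicate 3 (median -0.052). At an unadjusted p under 0.05 edgeR counted 1 insulator and 3 cohesin, condensin or Top2 genes with all 3 libraries, and DESeq2 called 1 and 2. Polycomb genes had 1 higher and 1 lower of 21 tested genes (median log2 fold change 0.10), and 5 higher and 3 lower of 21 without replicate 3 (median -0.017). Trithorax genes had 2 higher and 0 lower of 21 tested genes (median log2 fold change 0.072), and 4 higher and 6 lower of 21 without replicate 3 (median 0.01). Mediator subunits had 2 higher and 0 lower of 28 tested genes (median log2 fold change 0.065), and 4 higher and 4 lower of 28 without replicate 3 (median 0.081). Cell cycle and mitosis genes had 0 higher and 2 lower of 48 tested genes (median log2 fold change 0.025), and 5 higher and 30 lower of 48 without replicate 3 (median -0.27). Their summed level was 6489, 6499.7 and 3558 CPM in BEAF-32 RNAi and 5719.9 to 5889.9 in the double knockdown, so replicate 3 was below the other 5 libraries. DNA replication genes had 2 higher and 0 lower of 41 tested genes (median log2 fold change 0.22), and 8 higher and 3 lower of 41 without replicate 3 (median 0.018).

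Genes called only without replicate 3 include large differences. LpR1, a lipoprotein receptor, was at 255, 251 and 799 CPM in BEAF-32 RNAi and 1022, 1021 and 1011 in the double knockdown, a log2 fold change of 2.00 ± 0.053 with replicates 1 and 2 (edgeR adjusted p = 2.28e-40) and 1.23 ± 0.35 with all 3 (adjusted p = 0.0553). Gp93, the ER chaperone of the HSP90 family, was at 473, 484 and 1349 CPM in BEAF-32 RNAi and 1361, 1358 and 1326 in the double knockdown (1.49 ± 0.051 against 0.81 ± 0.31), and CG5080 at 44.9, 44.6 and 214 CPM in BEAF-32 RNAi and 222, 224 and 232 in the double knockdown (2.33 ± 0.075 against 1.17 ± 0.47). In these 3 genes replicate 3 stood near the double knockdown.

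In the other 3 of the 6 with the smallest p, replicate 3 lay beyond every library of the double knockdown. GstD1, a glutathione S-transferase of the oxidative stress response, was at 48.0, 47.3 and 534 CPM in BEAF-32 RNAi, 186, 222 and 217 in the double knockdown and 21.0, 21.1 and 21.1 in WT, with log2 fold changes of 2.12 ± 0.072 without replicate 3 (edgeR adjusted p = 1.02e-34) and -0.0025 ± 0.70 with it (adjusted p = 0.999). Ugt302C1, a UDP-glycosyltransferase, was at 31.9, 35.2 and 353 CPM in BEAF-32 RNAi and 165, 144 and 149 in the double knockdown (2.18 ± 0.078 and 0.14 ± 0.68), and MFS3, a transporter, at 361, 389 and 1535 CPM in BEAF-32 RNAi and 1097, 1087 and 1005 in the double knockdown (1.5 ± 0.053 and 0.48 ± 0.42). The 1 gene called only with all 3 libraries was CG13912, at 0.106, 0.0969 and 0 CPM in BEAF-32 RNAi and 0.61, 0.702 and 0.492 in the double knockdown (2.83 ± 0.73, adjusted p = 0.0401, and 2.42 ± 1.01 with an adjusted p of 0.051 without replicate 3).

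Some of these values depend on how overlapping genes were counted. The targets BEAF-32, Cp190 and Chro overlap a gene on the opposite strand, and so do RpL3, ACC, tgo, Edem2, Abca3, Ets21C, puc, Ama, PPO1, drpr, Myc, AGO2, Hexo2, fng, mael, Gp93, CG13912, Mal-A1 and Cyp6d2. RpL22, NimC4, drpr, Rel, Myc, CtsL1 and MFS3 overlap a gene on their own strand other than a snoRNA gene. The antisense gene of RpL3, asRNA:CR31144, was itself called lower. Overlapping genes were also called in the same direction for Myc (CG12535), Ets21C (nAChRbeta3), fng (CG10589), CtsL1 (CG42806) and Amnionless (CG3625). CG3625 had a mean of 83.9 CPM in the double knockdown, against 1.66 for Amnionless. Whether reads of these neighbours entered the counts was not tested.

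By chromosome arm, genes called in both fits were spread widely. The X had 81 higher and 38 lower of 1819 tested genes (4.45% and 2.09%), beside 3.64% and 3.25% over all genes. Chromosome 4 had 0 higher and 7 lower of 98. On 2L, 2R, 3L and 3R 3.05 to 4.11% of genes were higher and 3.05 to 3.70% lower. These are counts with no test.

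Called genes were also placed against the TAD borders of the same cells. Of the borders in the BEAF-32 RNAi list, 1516 had a border of the double knockdown list within 2000 bp and 1041 had none, and 647 borders of the double knockdown list had none in the other. A border of the BEAF-32 RNAi list only lay within that distance of the start site of 9.42% of the genes that were higher and 7.92% of those that were lower, beside 7.67% of all genes. For borders of the double knockdown list only the shares were 2.88%, 3.81% and 2.58%, and for shared borders 18.8%, 22.9% and 18%. Of ribosomal protein genes 34.5% lay near shared borders and 17.9% near those of the BEAF-32 RNAi list only.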

How the data were processed

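Poly(A) RNA of BG3 cells was sequenced, and the deposited counts per gene were made by the authors, who trimmed reads (Trimmomatic 0.39), aligned them to dm6 (TopHat2 2.1.2, Bowtie2 2.3.4.1), removed duplicates (Picard) and counted with HTSeq at its default strand setting. The sources used here do not state the kit's strand, so overlapping genes on opposite strands are uncertain. Removing duplicates can lower the counts of abundant genes. HTSeq lines that name no gene were left out (no feature, 39.4 to 44.1% of a library, and not unique, 16.0 to 29.5%).

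Genes with at least 10 counts in total were tested with the quasi-likelihood F test of edgeR 4.0.16 (R 4.3.3, TMM, group as the only term, Benjamini-Hochberg adjustment over all genes tested, threshold 0.05), on all 12 libraries and on 11 without BEAF-32 RNAi replicate 3. SEs were derived from the F statistic. The test was checked on simulated data with the same spread in every group and no outlying library. That check therefore does not cover a library such as BEAF-32 RNAi replicate 3. Of 16727 genes 12512 matched RefSeq by symbol and 4073 by synonym. TAD borders are base positions from the authors' lists.

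The members and the 54 gene lists, written from general knowledge, were chosen with earlier results of these data known. Named genes are the 4 RNAi targets, 14 rises and 14 falls as defined in the text, genes of smallest p in each list (at most 4 in a direction) among those called in both fits, and up to 6 called in a single fit. Exceptions are stated, and not all list genes so chosen are described. Alternatives were RLE scaling, library size alone, DESeq2 1.42.0, other filters, the 2 knockdowns alone, robust dispersion, a replicate block and leaving out each library. DESeq2 on the 2 knockdowns alone was added after the data were seen.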

Additional observations from a re-analysis of the deposited data

How the results depend on the processing

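The count with all 3 BEAF-32 RNAi libraries was 728. It was 30 with the 2 knockdowns alone (DESeq2 on these, added after the data were seen, 402), 1217 with DESeq2 on 12 libraries, 160 and 55 where a size of 1 or 2 on the log2 scale was also required, and 265 to 3944 with 1 library left out. With a replicate block it was 463, and without replicate 3 the block gave 3748. Deviations of same-numbered libraries from their group means correlated at -0.011 to 0.044. Replicate 3 dominates these deviations in BEAF-32 RNAi, so they can hardly show a pairing of replicates 1 and 2. The count without replicate 3 (3944) was 801 and 326 at the fold thresholds and 3072 to 3810 with 1 library left out, where a lone BEAF-32 RNAi library is assumed to vary like the other groups. Scaling, filters and robust dispersion kept both counts within 1.5 times.

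Of the 78 named genes called with all 3 libraries, none changed direction under any alternative listed for them, 76 or 77 kept their call under RLE scaling, library size alone, DESeq2, the filter of 1 count and robust dispersion, 62 under the block, 46 to 60 without 1 library other than replicate 3 of BEAF-32 RNAi, and 14 with the 2 knockdowns alone. Among uncalled genes, Cp190 changed sign under RLE scaling (-0.013), library size alone (-0.017), DESeq2 (-0.014), filterByExpr (-0.019) and with 1 library left out (range -0.15 to 0.085). GstD1 did so under library size alone (0.018), the filter of 1 count (0.047), the 2 knockdowns alone (0.018), the replicate block (0.53) and with 1 library left out (range -0.48 to 2.12). With 1 library left out Chro ranged from -0.18 to 0.28, Ugt302C1 from -0.34 to 2.18 and RanBPM from -0.15 to 0.040. Median log2 fold changes of all genes differed by less than 0.1 between scalings.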

Other observations

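The other gene lists are given here as values, beside 3.65% higher and 3.25% lower over all genes, and 20.1% and 17.8% without replicate 3. Ecdysone response genes, which answer the steroid hormone of moulting, had 0 higher and 1 lower of 32 tested genes (median log2 fold change 0.085), and 13 higher and 2 lower of 32 without replicate 3 (median 0.35). Most of their calls were absent once replicate 3 was counted, as were 3217 of the 3944 calls over all genes. EGFR and FGF signalling genes had 2 higher and 2 lower of 27 tested genes (median log2 fold change -0.13), and 4 higher and 9 lower of 27 without replicate 3 (median -0.037), and JAK/STAT genes 2 higher and 1 lower of 14 tested genes (median log2 fold change 0.056), and 3 higher and 1 lower of 14 without replicate 3 (median 0.058). Proteasome subunits had 1 higher and 0 lower of 34 tested genes (median log2 fold change 0.10), and 10 higher and 4 lower of 34 without replicate 3 (median 0.068), and subunits of the V-ATPase, the proton pump of lysosomes, 1 higher and 0 lower of 22 tested genes (median log2 fold change 0.00078), and 2 higher and 6 lower of 22 without replicate 3 (median -0.073). Genes of the Hippo, Dpp and Hedgehog pathways had 1 higher and 0 lower of 29 tested genes (median log2 fold change 0.0089), and 8 higher and 8 lower of 29 without replicate 3 (median -0.043). Dosage compensation genes had 1 higher and 0 lower of 9 tested genes (median log2 fold change -0.12), and 2 higher and 5 lower of 9 without replicate 3 (median -0.21).

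With all 3 libraries, edgeR called 0 of 18 heterochromatin genes, 0 of 18 apoptosis genes, 0 of 15 genes of metal binding and transport, 0 of 22 cuticle genes and 0 of 6 histone genes. At an unadjusted p under 0.05 the counts were 2, 4, 3, 3 and 2 in the same order, and DESeq2 called 1, 2, 0, 1 and 0. Without replicate 3 these lists had 1 higher and 5 lower, 3 and 3, 5 and 1, 1 and 3, and 2 and 1. Planar cell polarity genes had 0 higher and 1 lower of 15 tested genes (median log2 fold change -0.25), and 2 higher and 4 lower of 15 without replicate 3 (median -0.046), Hox and segmentation genes 1 higher and 1 lower of 11 tested genes (median log2 fold change -0.10), and 2 higher and 4 lower of 10 without replicate 3 (median -0.28), and imaginal disc growth factors 1 higher and 1 lower of 11 tested genes (median log2 fold change -0.20), and 2 higher and 1 lower of 10 without replicate 3 (median -0.30). A list of genes that the study names, chosen there on these samples and so not independent of them, had 1 higher and 1 lower of 15 tested genes (median log2 fold change 0.021), and 3 higher and 6 lower of 15 without replicate 3 (median -0.064). No gene of the mitochondrial genome was tested.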
